A study of Mus musculus with 4 samples.

Results

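The 10 interferon-inducible GTPase genes described here are 6 immunity-related GTPase genes (Irgm1, Irgm2, Igtp, Iigp1, Tgtp1 and Tgtp2) and 4 guanylate-binding protein genes (Gbp2, Gbp3, Gbp7 and Gbp10), out of 55401 genes in the tables. They were chosen by name from both families, and selected on the same comparison that is reported below. The reason was the rise of Tgtp1, Iigp1 and Gbp10, the largest among these 10 but not among all genes of the families. The levels and fold changes of the 10 are therefore a description, with no test. All 10 passed the filter on low counts, which kept 16751 genes. RNA was measured in mouse optic nerves, with 2 libraries of genotype Dor WT and 2 of genotype Dor cKO, a conditional knockout of a gene the labels name only as Dor. The title concerns alpha-ketoglutarate metabolism in mature oligodendrocytes, the cells that wrap the axons of the nerve in myelin. Sex, age, strain, the driver of the deletion and the number of animals per library are not given in the sources used here, and no further allele or treatment is named for either group.

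Immunity-related GTPases and guanylate-binding proteins are enzymes that cells make in quantity after an interferon signal, and they are best known for attacking the vacuoles in which parasites and bacteria live. Interferon receptors act through Janus kinases and STAT proteins, and the STAT and IRF factors bind short promoter motifs, the gamma-activated site (GAS) and the interferon-stimulated response element (ISRE). The IRGM proteins (Irgm1, Irgm2 and Igtp) sit on the cell's own membranes and keep the effector GTPases (Iigp1 and the Tgtp proteins) inactive there. In nervous tissue, glia, endothelial cells and invading immune cells can all turn these genes on.

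Total expected counts lay between 17263830 and 21595832 per library, and a floor of 3 counts lay between 0.139 and 0.174 CPM, counts scaled to library size. The mean fragment length, as the tables give it through effective lengths, was 259.6 and 260.0 bases in Dor WT against 245.5 and 245.3 bases in Dor cKO. Only the Dor WT tables have a tag in their names that looks like an age, with no stated meaning. Nothing in the labels says that the libraries of a group came from separate animals, so p-values measure only the spread between these libraries, which may be technical. Trp53inp2, for which Dor is a known synonym, had 138 and 134 CPM in the Dor WT libraries and 105 and 107 CPM in the Dor cKO libraries (log2 fold change -0.36, SE 0.04, edgeR adjusted p = 2.73e-08). With a biological coefficient of variation of 0.1 that call ended, at an adjusted p of 0.111. With limma on log2(TPM + 0.1), where TPM is the deposited level per transcript length, it ended at 0.0728. Counts over a whole gene in whole tissue do not show the loss of single exons or a loss in some cells.

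The promoters show what the members share in sequence. RefSeq windows on build GRCm38.p6, from 250 bases before to 50 bases after each start, were used for 8 of the 10 members, all but Iigp1 and Gbp10. They were searched on both strands for the GAS letters TTCNNNGAA and for an ISRE core, read as GAAA, any 2 bases and GAAA again. An ISRE core was found in 8 of 8 members and in 3.99% of 27025 genes with a window. A GAS match was found in 5 of 8 members and in 9.55% of those genes. Stretches around the matches are shown 5′ to 3′ along each gene's strand, with every base of a match in capitals, because the arrangement differs between the members.
Tgtp1: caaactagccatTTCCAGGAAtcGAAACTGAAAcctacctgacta
Tgtp2: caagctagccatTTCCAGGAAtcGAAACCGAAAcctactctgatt
Igtp: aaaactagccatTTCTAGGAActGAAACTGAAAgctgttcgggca
Irgm2: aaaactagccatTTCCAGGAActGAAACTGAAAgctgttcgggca
Irgm1: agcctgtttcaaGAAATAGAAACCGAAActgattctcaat
Gbp7: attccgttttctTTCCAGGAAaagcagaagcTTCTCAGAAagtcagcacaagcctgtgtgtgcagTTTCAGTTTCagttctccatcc
Gbp3: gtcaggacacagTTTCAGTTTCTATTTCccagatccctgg
Gbp2: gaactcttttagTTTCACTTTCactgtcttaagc
In Tgtp1 (chr11:48992302-48992346, minus strand), Tgtp2 (chr11:49064261-49064305, minus), Igtp (chr11:58199499-58199543, plus) and Irgm2 (chr11:58214890-58214934, plus) a GAS match was followed after 2 bases by an ISRE core. That spacing was noticed once the sequences were in view, and 5 of the 27025 genes have it (0.0185%). The fifth is Gm12185, for which RefSeq lists the immunity-related GTPase name Irgb2b1 as a synonym. The 45-base stretches of Igtp and Irgm2 were the same at 44 bases, those of Tgtp1 and Tgtp2 at 37, and the other pairs at 32 to 34.

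In Irgm1 (chr11:48871423-48871462, minus) and Gbp3 (chr3:142559987-142560026, plus) 2 ISRE cores overlapped and no GAS match was found, and the second of the Gbp3 windows held no match. In Gbp2 (chr3:142620592-142620625, plus) there was 1 ISRE core alone. In Gbp7 (chr3:142530218-142530304, plus) 2 GAS matches preceded 1 ISRE core. Along the gene's strand the ISRE core read as written above in Irgm1, Irgm2, Igtp, Tgtp1 and Tgtp2, and as its reverse complement in Gbp2, Gbp3 and Gbp7. Matches began between 24 and 106 bases before the start in all 8. Among the other genes of both families with a window, 4 of 8 held an ISRE core and 2 of 8 a GAS match. The members with both motifs had log2 fold changes from 0.58 (Gbp7) to 2.07 (Tgtp1), and those with an ISRE core alone from 0.49 (Gbp2) to 1.15 (Irgm1), ranges that overlap. A match is a run of letters and not a measured binding site.

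All 10 members were higher in both Dor cKO libraries than in either Dor WT library. Summed over the members, the level was 87.5 and 89.7 TPM in Dor WT against 173 and 174 TPM in Dor cKO. The median log2 fold change of the members was 1.06, from 0.49 to 2.07, beside -0.0036 over all 16751 tested genes. By edgeR's quasi-likelihood test at an adjusted p under 0.05, 10 of 10 members were called higher, where 14.3% of tested genes were called higher and 13.4% lower. The members were selected on this contrast, so nothing is read from that count. The 6 immunity-related GTPase genes had a median of 1.29, from 0.86 to 2.07, and the 4 guanylate-binding protein genes a median of 0.77, from 0.49 to 1.57. The share of the summed TPM held by the immunity-related GTPase genes was 51.9% and 53.5% in Dor WT against 60.9% and 60.7% in Dor cKO.

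**Figure D1:**
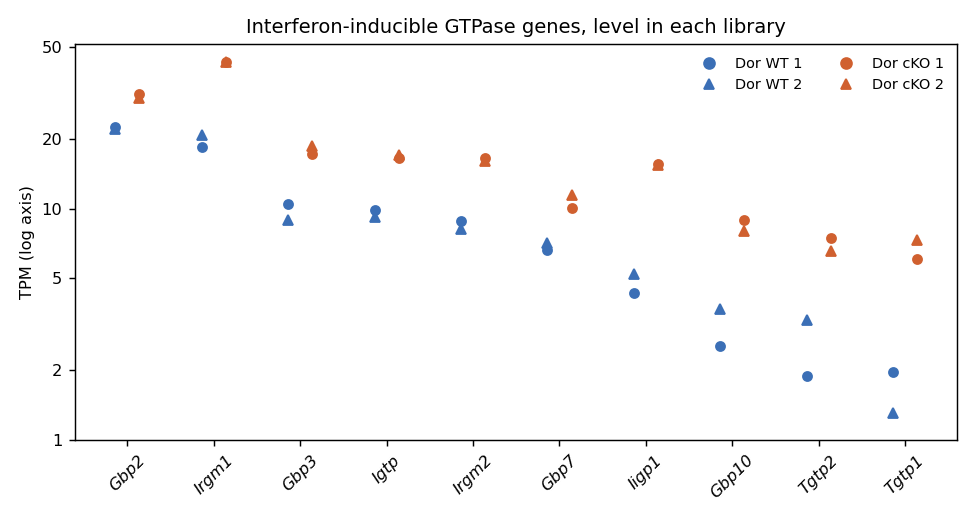
Level of each member in TPM (log axis) in the 2 Dor WT libraries (blue) and the 2 Dor cKO libraries (orange), ordered by the Dor WT mean. Every Dor cKO point lies above both Dor WT points of its gene, with Irgm1 at 43.1 TPM and Tgtp1 at 6.69 TPM at the top and bottom of the Dor cKO means.

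The regulatory IRGM genes had the smaller fold changes among the immunity-related GTPase members, from 0.86 to 1.15 on the log2 scale. Irgm1 (ENSMUSG00000046879.7, GRCm38 chromosome 11, 48861968 to 48871683, minus strand), whose product acts at mitochondria and lysosome-related membranes, had 23.7 and 27.0 CPM in the Dor WT libraries and 56.5 and 56.6 CPM in the Dor cKO libraries. The Dor cKO libraries were nearly equal, and both lay above Dor WT by more than the gap between the Dor WT libraries. That is a log2 fold change of 1.15 (SE 0.07, n = 2 per group), or 2.22-fold.

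Irgm2 (ENSMUSG00000069874.7, chromosome 11, 58199618 to 58222782, plus strand), whose product is found at the Golgi, had 19.6 and 18.0 CPM in the Dor WT libraries and 36.9 and 36.0 CPM in the Dor cKO libraries, a log2 fold change of 0.96 (SE 0.08). Igtp, also called Irgm3 (ENSMUSG00000078853.8, chromosome 11, 58199556 to 58207591, plus strand), whose product sits on the endoplasmic reticulum and lipid droplets, had 11.7 and 11.0 CPM in the Dor WT libraries and 20.2 and 21 CPM in the Dor cKO libraries, a log2 fold change of 0.86 (SE 0.11). Neither gene's groups overlapped, and the libraries within a group differed by at most 0.12 on the log2 scale. The annotated spans of Igtp and Irgm2 overlap on the same strand. Of their 150-base exon windows, however, only 0.739% and 0.437% were shared, and the deposited posterior SD of both counts was 0 in all 4 libraries.

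The effector members had log2 fold changes from 1.42 to 2.07, all above those of the IRGM genes. Tgtp1 and Iigp1 were among the genes whose rise set the choice of members, so this order is a description. Immunity-related GTPase genes outside the members lay below, within and above the range of the IRGM genes. Examples are 9930111J21Rik2 at 0.46, Gm5431 at 1.05 and Ifi47 at 1.42. Iigp1, also called Irga6 (ENSMUSG00000054072.12, chromosome 18, 60376027 to 60392634, plus strand), whose product assembles on parasite vacuoles, had 7.60 and 8.29 CPM in the Dor WT libraries and 26.3 and 25.1 CPM in the Dor cKO libraries. Both Dor cKO libraries stood well above both Dor WT libraries, by 1.60 on the log2 scale from the lowest Dor cKO to the highest Dor WT value. The log2 fold change was 1.69 (SE 0.11), or 3.23-fold, and none of its 150-base exon windows was shared with another gene.

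Tgtp1 (ENSMUSG00000078922.9, chromosome 11, 48985327 to 48994172, minus strand) had 3.45 and 2.30 CPM in the Dor WT libraries and 10.9 and 13.1 CPM in the Dor cKO libraries, a log2 fold change of 2.07 (SE 0.19). Tgtp2 (ENSMUSG00000078921.3, chromosome 11, 49057194 to 49064206, minus strand) had 3.34 and 5.80 CPM in the Dor WT libraries and 13.2 and 11.6 CPM in the Dor cKO libraries, a log2 fold change of 1.42 (SE 0.19). Both encode the effector Irgb6, their groups did not overlap, and the Dor WT libraries of each differed more than those of any other member, by 0.59 for Tgtp1 and 0.80 for Tgtp2 on the log2 scale. Their coding sequences are the same at 1241 of 1245 bases (99.7%), and 64.9% of the 150-base exon windows of Tgtp1 and 68.4% of those of Tgtp2 occur in another gene. How the reads were split between them is therefore uncertain. The Tgtp1 share of the summed count was 51.2% and 28.4% in Dor WT against 45.1% and 52.9% in Dor cKO, so the ranges of the groups overlap. The sum does not depend on the split: it was 117.9 and 176.0 expected counts in Dor WT against 506.9 and 512.7 in Dor cKO, a log2 fold change of 1.70 (SE 0.12), or 3.26-fold. Leaving out Dor WT 1 gave 2.37 for Tgtp1 and 1.10 for Tgtp2, and leaving out Dor WT 2 gave 1.79 and 1.89, so the order of the pair rested on Dor WT 2.

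**Figure D2:**
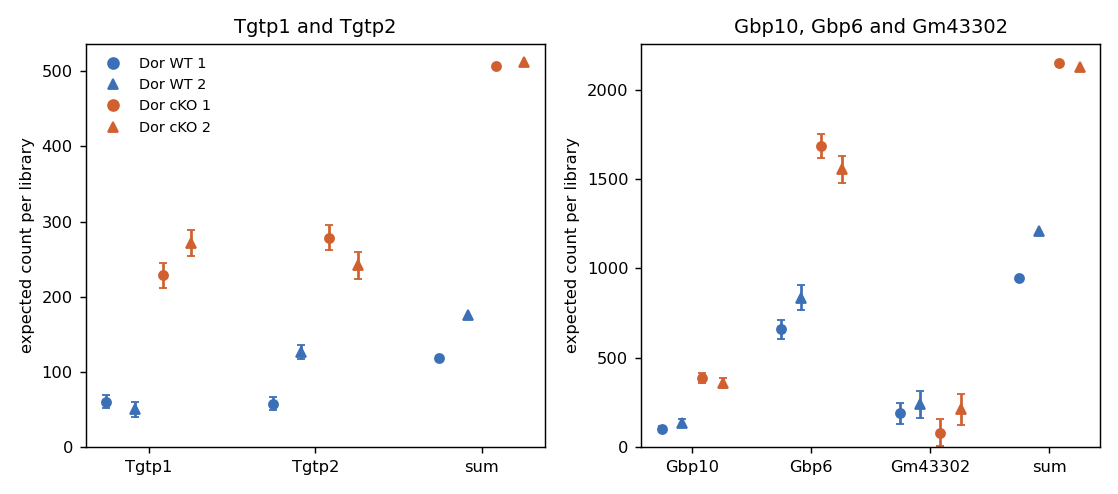
Expected counts per library of genes that share sequence, with bars of 2 deposited posterior SDs, and their sums. The Tgtp1 and Tgtp2 sum is 117.9 and 176.0 in Dor WT (blue) and 506.9 and 512.7 in Dor cKO (orange), and the sum of Gbp10, Gbp6 and Gm43302 is 947 and 1210 in Dor WT against 2150 and 2126 in Dor cKO.

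Of the guanylate-binding protein members, 3 lie together on chromosome 3. Gbp2 (ENSMUSG00000028270.12, 142620602 to 142638008, plus strand), whose product coats parasite vacuoles and bacteria, had 35.1 and 34.2 CPM in the Dor WT libraries and 49.4 and 47.5 CPM in the Dor cKO libraries. The libraries of each group lay close together and apart from those of the other group, and the log2 fold change of 0.49 (SE 0.07, 1.40-fold) was the smallest of the members. Gbp3 (ENSMUSG00000028268.14, 142560026 to 142573209, plus strand) had 12.7 and 12.2 CPM in the Dor WT libraries and 23.8 and 24.4 CPM in the Dor cKO libraries, a log2 fold change of 0.95 (SE 0.10). Gbp7 (ENSMUSG00000040253.15, 142530342 to 142550149, plus strand) had 19.5 and 19.5 CPM in the Dor WT libraries and 28.9 and 29.5 CPM in the Dor cKO libraries, a log2 fold change of 0.58 (SE 0.09). For both genes the gap between groups was many times the gap within them. Gbp7 shared 8.77% of its 150-base exon windows with Gm43802, and its posterior SD was between 1.63 and 6.21 counts. Gbp2 and Gbp3 shared none.

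Gbp10 (ENSMUSG00000105096.1, chromosome 5, 105215699 to 105239533, minus strand) had 5.70 and 6.26 CPM in the Dor WT libraries and 18.4 and 17.3 CPM in the Dor cKO libraries. Its groups lay far apart, with a log2 fold change of 1.57 (SE 0.14), or 2.98-fold. Its coding sequence is the same as that of its neighbour Gbp6 at 1803 of 1833 bases (98.4%), and 66.6% of its 150-base exon windows occur in Gbp6 or in Gm43302, an annotated gene that overlaps both and was picked out after values were seen. The posterior SD of the Gbp10 count was 8.15 to 14.4 counts. Summed, Gbp6 and Gbp10 had 758.8 and 971.9 expected counts in Dor WT against 2069.7 and 1914.5 in Dor cKO, a log2 fold change of 1.11 (SE 0.06). With Gm43302 added, the log2 fold change was 0.89 (SE 0.05), or 1.86-fold. Gbp10 held 10.5% and 11.2% of that sum in Dor WT against 17.9% and 16.9% in Dor cKO. Its place among the largest fold changes therefore depends on how reads were divided among these 3 genes. Gm43302 itself had 188 and 238 expected counts in Dor WT against 80.3 and 212 in Dor cKO, with posterior SDs from 29.6 to 43.2.

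The effect of the reported uncertainty was tried with a shift of the counts, which does not bound it. When counts were moved by 2 posterior SDs against the difference, the log2 fold change was 1.75 for Tgtp1, 1.18 for Tgtp2, 1.25 for Gbp10 and 0.55 for Gbp7, and the direction held for each. The other 6 members had a posterior SD of 0. With Tgtp1 and Tgtp2 counted as a sum and Gbp10 with Gbp6 and Gm43302, Tgtp1 and Tgtp2 stood at 1.70, beside 1.69 for Iigp1, while Gbp10 stood below Irgm1, Irgm2 and Gbp3.

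**Figure D3:**
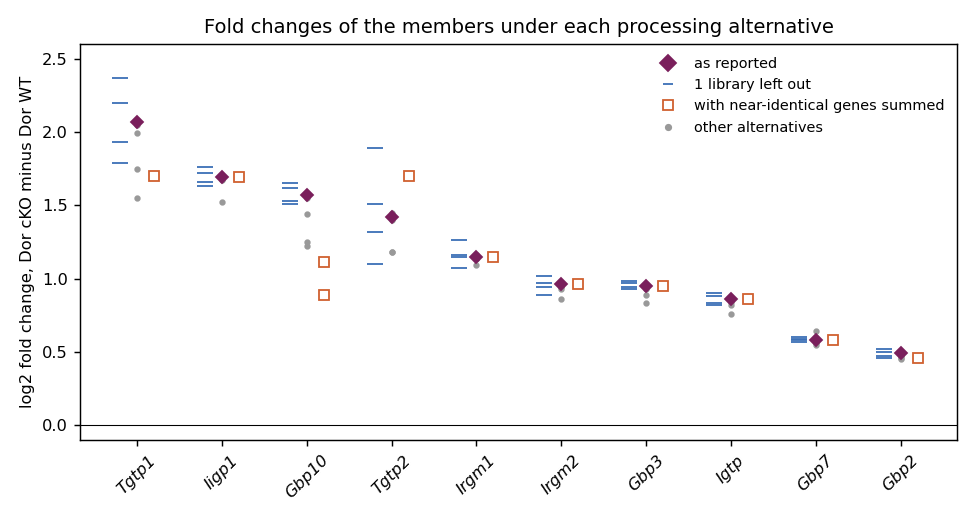
Log2 fold changes of the members, Dor cKO minus Dor WT, as reported (diamonds), with 1 library left out (bars), with near-identical genes summed (squares) and under the other alternatives (dots). All values are above 0, and the widest ranges are those of Tgtp1 (1.55 to 2.37), Tgtp2 (1.10 to 1.89) and Gbp10 (0.89 to 1.65).

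Per transcript length, the order of the members changed between the groups. In Dor WT the highest mean levels were those of Gbp2 (22.3 ± 0.354 TPM, SD, n = 2) and Irgm1 (19.7 ± 1.67 TPM). Gbp3 (9.69 TPM) and Igtp (9.50 TPM) followed and overlapped in their libraries. Irgm2 had 8.50 TPM, Gbp7 6.87 TPM and Iigp1 4.78 TPM, each apart from its neighbour. The lowest were Gbp10 (3.10 TPM), Tgtp2 (2.59 TPM) and Tgtp1 (1.63 TPM), where each overlapped the next. In Dor cKO Irgm1 (43.1 ± 0.0919 TPM) stood above Gbp2 (30.7 ± 0.884 TPM), and in neither group did their libraries overlap. Iigp1, at 15.5 TPM, lay above Gbp7, at 10.7 TPM, in Dor cKO and below it in Dor WT. Gbp3 (18.0 TPM), Igtp (16.8 TPM) and Irgm2 (16.3 TPM) kept their order, and Gbp10 (8.46 TPM), Tgtp2 (6.99 TPM) and Tgtp1 (6.69 TPM) were again the lowest, with only Tgtp2 and Tgtp1 overlapping. Gbp2 had the highest Dor WT level and the smallest fold change, and Tgtp1 the lowest level and the largest, though its rank on both rests on the uncertain split of reads with Tgtp2.

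The rest of both families, which the choice of members left out, was also mostly higher in Dor cKO. Of 16 further genes, 15 were tested, 9 were higher by edgeR's test, 0 were lower and 6 were not called, with a median log2 fold change of 0.79. Of all tested genes, 14.3% were called higher and 13.4% lower. Irgc1 was too low to test. Beside Iigp1 on chromosome 18, Gm4951 rose by 1.75 (SE 0.22, adjusted p = 3.54e-07) and F830016B08Rik by 1.86 (SE 0.35, adjusted p = 1.06e-04). Near Tgtp1 and Tgtp2, Ifi47, an immunity-related GTPase gene also called Irgd, went from 5.35 and 3.91 CPM to 12.2 and 12.4 CPM and rose by 1.42 (adjusted p = 6.48e-08). In the same cluster, Gm5431 rose by 1.05 (adjusted p = 0.0208) and 9930111J21Rik2 by 0.46 (adjusted p = 0.00142). The posterior SD of the 9930111J21Rik2 count was 6.41 to 10.56 counts. That of 9930111J21Rik1 was nearly the same in each library, 6.39 to 10.48 counts, so the split of reads between them may be uncertain. On chromosome 5, Gbp6 went from 37.9 and 38.5 CPM to 80.2 and 74.8 CPM and rose by 1.02 (adjusted p = 6.1e-14), Gbp4 rose by 0.93 (adjusted p = 1.5e-04) and Gbp9 by 0.48 (adjusted p = 6.63e-06). Of the 150-base exon windows of Gbp6, 59.1% occur in Gm43302 or Gbp10. Its value therefore depends on the same split of reads as that of the member Gbp10. On chromosome 3, Gbp5, whose product takes part in inflammasome assembly, rose by 0.79 (adjusted p = 0.00287).

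The genes of the families that were not called had log2 fold changes of 1.08 for Gm12250 (Irgb10), 0.42 for 9930111J21Rik1, 0.34 for Gbp8, 0.08 for Gbp11, 0.04 for Irgq and -0.19 for Gbp2b. Irgq, which lies apart from the other clusters on chromosome 7, had 68.5 to 75.0 CPM in the 4 libraries. Limma on log2(TPM + 0.1) or log2(TPM + 1) called none of F830016B08Rik, 9930111J21Rik2, Gm5431, Gbp5 and Gbp9 (adjusted p from 0.0588 to 0.231). DESeq2 did not call Gm5431 (adjusted p = 0.102). With the coefficient of variation at 0.1, 9930111J21Rik2 was not called (adjusted p = 0.0563). Gm5431 lost its call without Dor WT 2 (0.86, adjusted p = 0.109) and without Dor cKO 1 (0.81, adjusted p = 0.265), and Gbp5 without Dor cKO 2 (0.68, adjusted p = 0.0679). Another gene of the chromosome 18 cluster, Gm4841, which RefSeq also lists as Ifgga3, was noticed after values were seen. It had 0 and 6 expected counts in Dor WT against 36 and 19 in Dor cKO. On these low counts its log2 fold change was 3.07 (SE 0.73, edgeR adjusted p = 0.00164), above that of every member.

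**Figure D4:**
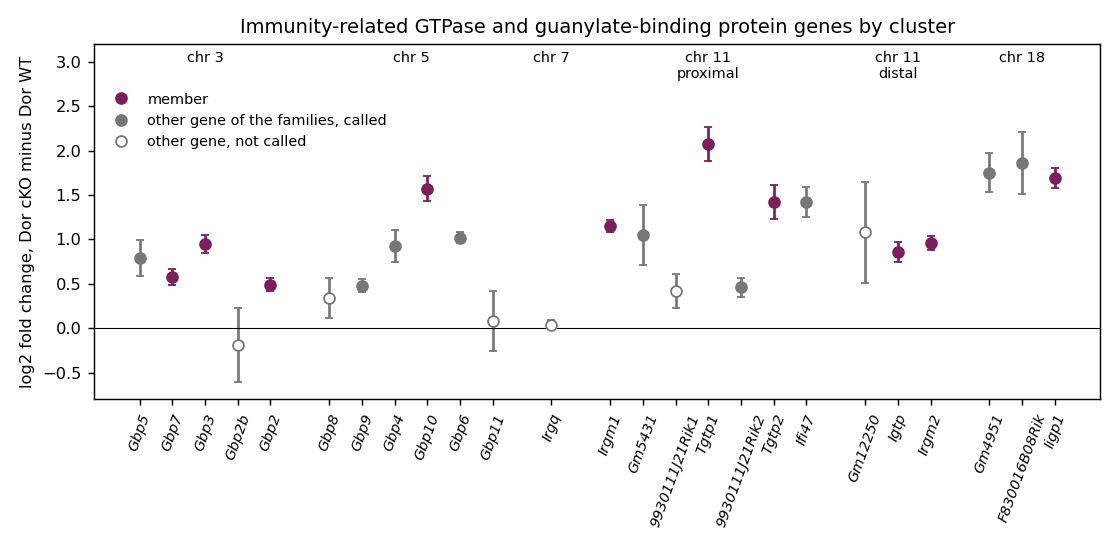
Log2 fold change with its SE for the members (purple) and the other listed genes of both families that were tested (grey), grouped by chromosomal cluster. Gm4841 is not shown. Filled grey points passed edgeR's test; Gm4951 (1.75), F830016B08Rik (1.86) and Iigp1 (1.69) lie close together, and Irgq lies at 0.04.

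Genes of neither family that lie within 500 kb of a member gave a local comparison. Of 38 such genes, 8 were called higher (21.1%) and 4 lower (10.5%), with a median log2 fold change of 0.10. Those called higher include Cd74, also listed as an interferon gamma target, and Olfr56 (1.54), whose annotated span overlaps Tgtp1 and Tgtp2. Over all tested genes 14.3% were called higher and 13.4% lower. The members were picked for their rise, so their median of 1.06 is no test against these neighbours.

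Of the ligands, 14 genes that encode interferons or cytokines upstream of them were examined, and 9 had a count of 0 in all 4 libraries: Ifnb1, Ifna1, Ifna2, Ifna4, Ifna5, Ifne, Ifnk, Ifnl2 and Ifnl3. A count of 0 allows up to 0.139 to 0.174 CPM at this depth. Ifng, the gene of interferon gamma, had 0.191 CPM in Dor cKO 1 and 0 in the other libraries. Il12a had 0.138 CPM in Dor WT 2 and 0.289 CPM in Dor cKO 2, and Il12b had 0.143 and 0.0963 CPM in Dor cKO and none in Dor WT. Of the ligands, 2 were tested and 0 called at an adjusted p under 0.05: Il18 at a log2 fold change of 0.09 (SE 0.11, edgeR adjusted p = 0.61) and Tnf at 0.76 (SE 0.61, adjusted p = 0.409). Neither edgeR at an unadjusted p under 0.05 nor DESeq2 called either of them (0 and 0). None of the interferon genes among these 14 had enough counts to be tested, and interferon genes outside the list were not examined.

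Of 7 receptor and kinase genes, 3 rose by small amounts, 0 fell and the median log2 fold change was 0.15. Beside this count and that of the transcription factors, 14.3% of all tested genes were called higher. Ifnar1 and Ifnar2, the subunits of the type I interferon receptor, rose by 0.18 (edgeR adjusted p = 0.00127) and 0.21 (adjusted p = 0.0254), and Jak1 by 0.20 (adjusted p = 4.36e-05). With the coefficient of variation at 0.1, Ifnar1, Ifnar2 and Jak1 were not called (adjusted p = 0.555, 0.489 and 0.474), nor with limma on log2(TPM + 1) (adjusted p = 0.165, 0.596 and 0.118). Ifnar2 also lost its call when any 1 library was left out, at log2 fold changes of 0.19 to 0.22. Of the transcription factors, 5 of 10 rose and 0 fell, with a median of 0.56. Irf7, a factor that type I interferon induces, went from 6.68 and 8.29 CPM to 30.2 and 26.7 CPM and rose by 1.92 (adjusted p = 1.63e-13). Irf9 and Stat2, which act together at the ISRE, rose by 0.70 and 0.54, and Irf1 by 0.36 (adjusted p = 0.0159). Limma on log2(TPM + 1) called neither Irf9 (adjusted p = 0.124) nor Irf1 (adjusted p = 0.059), and DESeq2 did not call Irf1 (adjusted p = 0.109). Irf1 was not called without Dor WT 2 (0.34, adjusted p = 0.0653) or Dor cKO 2 (0.26, adjusted p = 0.237).

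Negative regulators were in part higher too, with 3 of 6 higher, 0 lower and a median log2 fold change of 0.30. Over all tested genes the share called higher was 14.3%. Usp18, which restrains the type I receptor, rose by 1.78 (SE 0.13, edgeR adjusted p = 2.9e-12), Socs3 by 0.70 (adjusted p = 1.56e-07) and Ptpn6 by 0.39 (adjusted p = 0.00663). DESeq2 did not call Ptpn6 (adjusted p = 0.061). Ptpn6 lost its call without Dor cKO 2, at 0.32 (adjusted p = 0.109). Of 4 other large GTPase genes, 2 rose: Mx1 by 1.74 (adjusted p = 2.31e-05) and Mx2, which is annotated as a polymorphic pseudogene, by 0.64 (adjusted p = 0.00714). Limma on log2(TPM + 0.1) called neither Mx1 (adjusted p = 0.16) nor Mx2 (adjusted p = 0.105). The same held on log2(TPM + 1), at 0.127 and 0.103, and DESeq2 did not call Mx2 (adjusted p = 0.0632). Mx2 was not called without Dor cKO 1, at 0.57 (adjusted p = 0.102).

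Other genes that interferon gamma is known to induce were higher in part. Of 14, 12 were tested, 6 rose, where 14.3% of all tested genes did, and 0 fell, with a median log2 fold change of 0.36. The chemokine gene Cxcl10 rose by 0.97 (edgeR adjusted p = 3.49e-09), the immunoproteasome gene Psmb8 by 0.88 (adjusted p = 5.15e-06), the adhesion gene Icam1 by 0.54 (adjusted p = 2.42e-05), the Fc receptor gene Fcgr1 by 0.52 (adjusted p = 0.0062) and Cd74, the invariant chain of class II antigen presentation, by 0.24 (adjusted p = 0.00526). Fcgr1 lost its call without Dor WT 2, at 0.41 (adjusted p = 0.0686), and with DESeq2 (adjusted p = 0.059). Cd74 was not called with DESeq2 (adjusted p = 0.0594), with the coefficient of variation at 0.1 (adjusted p = 0.382) or with limma on log2(TPM + 1) (adjusted p = 0.0638). The tested genes that edgeR did not call were the class II genes H2-Aa (-0.13), H2-Ab1 (0.14) and H2-Eb1 (0.09), with Nos2 (0.04), Wars (-0.00) and Cd274 (0.48). The members were picked for their rise and these genes were not, so the medians are not a test of a difference.

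Most genes of the machinery that works with the GTPases were not called, nor were most of all tested genes. Of 19 genes for ATG8 conjugation, its adaptors and vacuole recognition, 4 rose, where 14.3% of all tested genes did. Of these 19, 0 fell and the median log2 fold change was -0.00. Rnf213, a large ubiquitin ligase, rose by 0.96 (edgeR adjusted p = 1.14e-15) and Trim21, an antibody receptor with ligase activity, by 0.59 (adjusted p = 0.00257). The autophagy genes Sqstm1 and Map1lc3a rose by 0.16 each, calls that ended with the coefficient of variation at 0.1 (adjusted p = 0.625 and 0.607) and with limma on log2(TPM + 1) (adjusted p = 0.0691 and 0.139). Of 8 inflammasome genes, 2 rose, where 14.3% of all tested genes did, 0 fell and the median was 0.37: Gsdmd, the pore-forming gasdermin, by 0.47 (adjusted p = 0.0119) and Il1b by 0.51 (adjusted p = 0.0147). Trim21 lost its call without Dor cKO 2 (0.43, adjusted p = 0.0935), Gsdmd without Dor cKO 1 or Dor cKO 2 (0.47 each, adjusted p = 0.0632 and 0.0644), and Il1b without Dor WT 2 (0.25, adjusted p = 0.30) or Dor cKO 2 (0.41, adjusted p = 0.16). DESeq2 called neither Gsdmd (adjusted p = 0.0921) nor Il1b (adjusted p = 0.102).

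**Figure D5:**
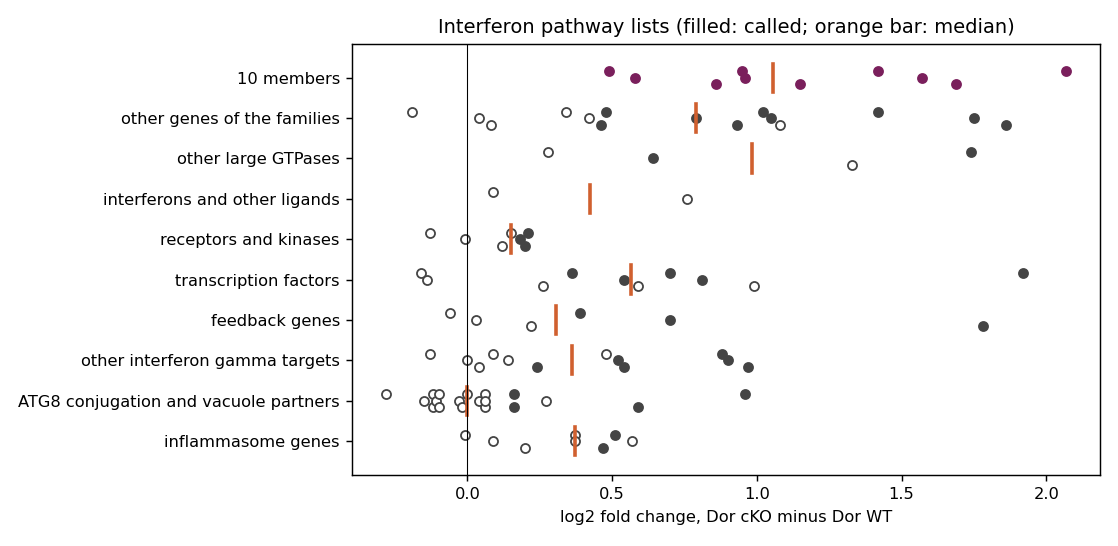
Log2 fold changes of the tested genes of each list, Dor cKO minus Dor WT, with filled points for genes called by edgeR and an orange bar at the median. The members have a median of 1.06, the other genes of their families 0.79, the transcription factors 0.56 and the ATG8 conjugation and vacuole partners -0.00.

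Markers of several cell types also differed between the groups. The counts below stand beside 14.3% of all tested genes called higher and 13.4% called lower. All 7 oligodendrocyte markers were lower, with a summed level of 29395 and 29266 CPM in Dor WT against 16835 and 16754 CPM in Dor cKO. Border macrophage markers were higher for 5 of 6, summing to 212 and 219 CPM in Dor WT against 300 and 304 CPM in Dor cKO. Of the microglia markers 3 of 8 were higher and 1 lower (595 and 600 CPM against 680 and 675 CPM), and of the endothelial markers 4 of 7 were higher (227 and 231 CPM against 277 and 282 CPM). Monocyte and neutrophil markers were higher for 3 of 5 (52.8 and 54.8 CPM against 69.0 and 71.6 CPM). Of the astrocyte markers 6 of 7 were higher and 1 was lower, and all 5 fibroblast markers were higher. T and NK cell markers, of which 3 of 12 could be tested and 0 were called, summed to 4.55 and 4.19 CPM in Dor WT against 5.57 and 5.78 CPM in Dor cKO, with Ncr1 at 0 in all libraries. For these markers edgeR called 0 at an unadjusted p under 0.05 as well, and DESeq2 called 0. Of the mural cell markers 1 of 4 was higher and 1 lower (556 and 578 CPM against 691 and 683 CPM), of the oligodendrocyte precursor markers 2 of 4 were lower (831 and 800 CPM against 780 and 769 CPM), and of the neuronal markers 1 of 4 was lower (117 and 118 CPM against 111 and 108 CPM). Of the plasmacytoid dendritic and B cell markers 0 of 3 tested were called by edgeR and 0 by DESeq2, and 1 had an unadjusted p under 0.05 in edgeR. Pituitary markers were lower for 4 of 4 tested, from 33.3 and 30.3 CPM to 3.14 and 2.46 CPM. The part of these shifts in the levels of the members was not tested, and in whole tissue a change in the number of cells of a type and a change in RNA per cell cannot be told apart.

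The genes whose pattern over the 4 libraries was most like the mean of the members were taken from 12193 genes outside all lists with at least 5 CPM, by the root mean square difference of centred log2 CPM. They were Bst2 (0.019), Parp14 (0.030), Gm20186 (0.034), Trex1 (0.056) and Ifit3 (0.058). Bst2, which encodes the antiviral protein tetherin, had 24.9 and 25.0 CPM in the Dor WT libraries and 54.2 and 53.9 CPM in the Dor cKO libraries. Ifit3, an interferon-induced antiviral gene, had 68.3 and 68.1 CPM in the Dor WT libraries and 154 and 165 CPM in the Dor cKO libraries. With 4 libraries in 2 groups, this likeness reflects mainly the size of the group difference.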

How the data were processed

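Per the labels' protocols, a stranded mRNA kit and paired reads were used. Build GRCm38 and the tools RSEM 1.3.1, STAR 2.7.9a and Trimmomatic 0.36 come from the submitters' processing notes. Annotation release and use of strand in counting are not given in the sources used here. Each deposited table, per the file headers, is RSEM gene output with an expected count, its posterior mean and SD, a TPM value, length and effective length per gene. An expected count divides reads that fit several genes. The other deposited values, lengths and effective lengths, gave the mean fragment length.

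Expected counts were rounded and filtered with filterByExpr (minimum count 10, minimum total 15), scaled by TMM and compared with edgeR 4.0.16 in R 4.3.3: quasi-likelihood test, robust fit, group as the only term, Benjamini-Hochberg over 16751 genes, called at an adjusted p under 0.05. SE is the size of the log2 fold change divided by the square root of F. The common biological coefficient of variation was 0.03477. Library totals were 17263830 and 21595832 (Dor WT) and 21162594 and 20928332 (Dor cKO). Floors cover counting error only. CPM uses TMM-scaled totals. GENCODE M21 gave symbols and coordinates and matched 55141 of 55401 identifiers. Promoter windows and synonyms came from RefSeq, GRCm38.p6. The steps were tested on simulated data.

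The members and lists were chosen with earlier results of these data known. Named genes were the members, other family genes with a count, up to 5 called genes per list with the highest CPM (or, with fewer than 2 called, the most abundant tested), ligands with a count, the 5 most alike genes and Trp53inp2. Tested interferon gamma targets that were not called were named in addition. A gene that this rule selects is not reported here. Alternatives were DESeq2 1.42.0, RLE and total count scaling, other count filters, posterior mean counts, counts moved by 2 posterior SDs, summed near-identical genes, a coefficient of variation set at 0.1, limma 3.58.1 on log2(TPM + 0.1) and log2(TPM + 1), a replicate block and leaving out each library. The sum with Gm43302 was added after seeing the data.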

Additional observations from a re-analysis of the deposited data

How the results depend on the processing

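Under 17 alternatives the members gave 161 values, of which 158 kept their call, 0 reversed and 3 missed the threshold. The members were selected on this contrast, so these counts are a description. Some values could hardly differ: moving counts by posterior SDs left counts with a posterior SD of 0 as they were. Summing likewise left the counts of unsummed members as they were, and the sum of Tgtp1 and Tgtp2 was counted for each gene. The misses were Tgtp2 with limma on log2(TPM + 0.1) (1.45, adjusted p = 0.0507) and Gbp7 with limma on log2(TPM + 0.1) (0.64, adjusted p = 0.0532) and on log2(TPM + 1) (0.58, adjusted p = 0.0558). The 4647 genes called over all genes became 2922 with DESeq2, 1594 with the coefficient of variation set at 0.1, 1422 with limma on log2(TPM + 0.1) and 1428 with limma on log2(TPM + 1), and the 34 other pathway genes called became 14 with either limma setting; the cause was not tested. Leaving out 1 library gave 3474 to 4257 genes, 10 members and 26 to 35 pathway genes, where the lone library of a group is assumed to vary like the other group. With a replicate block 4971 genes, 10 members and 34 pathway genes were called. Deviations of same-numbered libraries correlated at -0.015, which gives no sign that the numbers pair the samples, and with 2 libraries per group cannot exclude it. With 2 libraries per group, the SE of a fold change rests on spread borrowed across genes, and depth limits the ligands.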
